A study of Homo sapiens with 4 samples.

Results

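The metallothionein genes MT1E, MT1F, MT1G, MT1M, MT1X and MT2A and the gene of the metal-sensing transcription factor MTF1 were examined in AGS cells, an established line of human gastric adenocarcinoma. The 7 genes were taken by their names from a table of 47251 genes. RNA was sequenced from 4 libraries, 2 from cells with a single short hairpin RNA (shRNA) against MFAP2, which encodes an extracellular matrix protein of microfibrils (sh-MFAP2 replicates 1 and 2), and 2 from cells with a scrambled control shRNA (control replicates 1 and 2). All 4 came from AGS cells grown in DMEM with FBS and carrying an shRNA delivered by lentivirus under puromycin selection, and no untransduced cells and no second hairpin were among them. No metal was among the treatments named for these cells. Nothing in the labels says that the replicates came from separate cultures, so that the p-values measure the spread between these libraries, which may be technical.

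Metallothioneins are small cytosolic proteins, rich in cysteine, that bind zinc and copper and also cadmium, and they are known for buffering these metals and for reacting with oxidants. Their genes are switched on when zinc binds the zinc finger protein MTF1, which then attaches to metal response elements in their promoters, and glucocorticoids and stress also raise MT2A. MT2A is often the most abundant form in epithelial cells, MT3 is known chiefly from brain and MT4 from stratified epithelium.

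The family lies in a tight cluster on chromosome 16. On GRCh38 with GENCODE 29, 15 of the 16 family genes in the table lay between 56565049 and 56684196, a span of 119148 bases. MT2A was found at chr16:56608199-56609497, MT1E at chr16:56625475-56627112, MT1M at chr16:56632233-56633986, MT1F at chr16:56657694-56660698 and MT1X at chr16:56682424-56684196, all on the plus strand. MT1G was found at chr16:56666731-56668065 on the minus strand. The main transcript of each of these 6 genes had 3 exons. MTF1 lay elsewhere, at chr1:37809567-37859620 on the minus strand, with 11 exons. A processed transcript, AC026461.1, overlapped MT1X on the same strand, and a processed pseudogene, AL929472.4, overlapped MTF1 on the other strand.

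The coding sequences are shown because their likeness bears on how reads could be assigned to single genes. The first 27 coding bases follow, from the reference (GRCh38, GENCODE 29), 5′ to 3′ and within 1 exon, with capitals marking each base of an MT1 gene that differs from MT2A.
MT2A, chr16:56608656-56608682, plus strand: atggatcccaactgctcctgcgccgcc
MT1E, chr16:56625852-56625878, plus strand: atggaCcccaactgctcTtgcgccAcT
MT1F, chr16:56658059-56658085, plus strand: atggaCcccaactgctcctgcgccgcT
MT1G, chr16:56667967-56667993, minus strand: atggaCcccaactgctcctgTgccgcT
MT1M, chr16:56632732-56632758, plus strand: atggaCcccaactgctcctgcAccAcT
MT1X, chr16:56682541-56682567, plus strand: atggaCcccaactgctcctgcTcGCcT
Each of the 6 genes had 186 coding bases with the stop codon and 61 codons before it. In each, 20 codons (32.8%) were TGC or TGT, which encode the cysteines that hold the metal. MTF1, a much longer protein, had 753 codons, of which 21 (2.79%) encoded cysteine. Over the whole coding sequence, identity between pairs of the 6 ran from 88.7% (MT1F and MT1X, 21 differing bases) to 95.2% (MT1G and MT2A, 9 differing bases).

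This likeness limits single gene values to different degrees. Of the stretches of 50 bases in the main transcript, 45.1% in MT1X were also present in a transcript of another gene, with AC026461.1 among those genes. The share was 20.2% in MT1G, 7.05% in MT1M, 5.34% in MT1E, 4.88% in MT2A, 3.59% in MT1F and 0.644% in MTF1. For stretches of 100 bases, MT1X kept a share of 19.1%, all of it with AC026461.1, and the other 6 genes had none. Reads of AC026461.1 and of MT1X in their shared bases cannot be told apart, and the values of MT1X are uncertain to that extent. The length of the reads and the handling of reads with several matches are not given in the sources used here, and a summed level over the 6 metallothionein genes is therefore given beside the single values. The sum is less affected by how reads were split among the 6 genes. It does not remove the uncertainty from bases shared with AC026461.1 or with family genes outside the 6.

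The promoters are shown because metal response elements are what tie the family to MTF1. RefSeq promoters (GRCh38.p14) were at hand for 3 of the 7 genes, MT2A, MT1X and MTF1. The RefSeq start sites of these genes lie inside the GENCODE spans given above, and so do all the MT2A cores listed below. In the 250 bases before the start site, the core of the element was searched as TGCACNC or TGCGCNC on both strands, and overlapping matches were counted. The cores found, in capitals with up to 5 bases on each side, were these.
MT2A, chr16:56608334-56608349, plus strand: ccgcTGCACCCagccc
MT2A, chr16:56608411-56608427, minus strand: ggctcTGCACACgggcc
MT2A, chr16:56608426-56608442, plus strand: ccgggTGCGCCCggccc
MT2A, chr16:56608440-56608456, plus strand: cccagTGCGCGCggccg
MT2A, chr16:56608491-56608507, minus strand: ctgccTGCACACgcccc
MT2A, chr16:56608525-56608541, plus strand: gctttTGCACTCgtccc
MT2A, chr16:56608571-56608583, plus strand: cgcgcTGCACTCc
MT1X, chr16:56682315-56682331, plus strand: cgcggTGCGCCCggcgc
MT1X, chr16:56682343-56682359, plus strand: gttgcTGCACCCggccc
MT1X, chr16:56682387-56682403, minus strand: gtcctTGCACCCgcccc
MT1X, chr16:56682412-56682428, plus strand: gcctcTGCGCCCggccc
MT2A thus held 7 cores and MT1X 4. Of 35116 promoters, 24.8% held at least 1 core, 0.37% held 4 or more and 0.0313% held 7 or more. The MTF1 promoter held none of these letters. Among other family genes, MT1H held 8 cores (0.0171% of promoters held as many), and MT1B and MT4 held 3 each (1.58%). The letters TATAAA, a common box upstream of start sites, were present on the gene strand once each in MT2A, MT1X, MT1B and MT4 but not in MT1H or MTF1, against 6.8% of all promoters. These matches describe the sequence and are not measured binding sites.

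**Figure D1:**
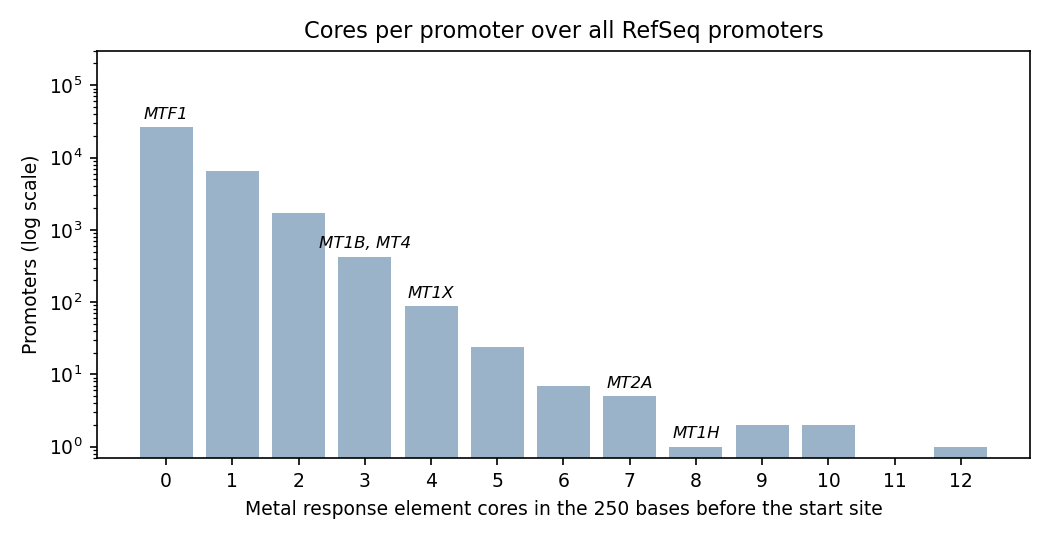
The horizontal axis gives the number of metal response element cores in the 250 bases before the start site, and the vertical axis, on a log scale, the number of RefSeq promoters with that number. Bars cover 35116 promoters, of which 26397 held no core, as MTF1 did, while MT1X stood at 4, MT2A at 7 and MT1H at 8.

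The deposited values were taken as FPKM, read numbers scaled to feature length and library depth, although the tables name no unit. Depth was not stated. The steps between low values implied about 54700000 to 75300000 reads per library, and 64.3% to 66.7% of the low values lay on whole steps within 0.05 of a read, against 10% by chance. MFAP2 itself was listed at 0 under sh-MFAP2 in both replicates and at 0.0116 and 0.0138 FPKM in the first and the second control, which is about 2.01 and 3.02 reads on that scale and too little to check the labels. Some zeros in the table may be failed estimates: PCBP1, an abundant intronless gene, was listed at 0 in all 4 libraries. A value of 0 is therefore reported only as listed. Where values are given in pairs, replicate 1 comes first. Of 8 epithelial markers 7 passed the filter, whereas 6 of 8 fibroblast, 6 of 8 leukocyte and 6 of 6 endothelial markers were under 0.1 FPKM in every library. Exceptions were COL1A1 and PDGFRA among the fibroblast markers, which summed with the rest of that list to 4.55 to 4.82 FPKM under sh-MFAP2 and 9.57 to 10.2 FPKM in the controls, and CD68 and LYZ among the leukocyte markers, whose list summed to 88.7 to 582 FPKM under sh-MFAP2 and 97.2 to 376 FPKM in the controls. That sum was nearly all LYZ, at 85.5 and 579 FPKM under sh-MFAP2 and 89.3 and 369 FPKM in the controls. CD68 was at 3.13 and 3.12 FPKM under sh-MFAP2 and 7.85 and 7.2 FPKM in the controls (log2 fold change −1.05, limma adjusted p = 0.133). The part of these genes in the metallothionein values was not tested.

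No metallothionein gene and not MTF1 passed the test between sh-MFAP2 and control. MT2A and MT1X were the abundant forms in every library, and MT1E and MT1F were low. MT1G was listed above 0 in 1 library only and MT1M in none. Genes averaging at least 1 FPKM were compared on log2(FPKM + 1) with limma and Benjamini-Hochberg adjustment over all 9873 genes tested. A gene was called at p under 0.01 and adjusted p under 0.05. By this rule 0 of the 5 genes that passed the filter (MT2A, MT1X, MT1E, MT1F and MTF1) were called, where 0.273% of all genes tested were, and 0 of the 5 had an unadjusted p under 0.05, where 12.3% of all genes did. The calls over the whole table were 15 genes higher in sh-MFAP2 (0.152%) and 12 lower (0.122%). In RNA from whole cultures, fewer cells with a transcript and less of it per cell cannot be told apart. Fold changes here are on the log2(FPKM + 1) scale, on which low genes change less than their FPKM do. Permuting 2 libraries against 2 exactly yields no two-sided p under 0.333, and the tests therefore rely on limma, which borrows variance across genes.

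MT2A, the most abundant metallothionein of these cells, was at 63.2 and 92.4 FPKM under sh-MFAP2 and at 51.6 and 71.0 FPKM under the control shRNA. The groups overlapped, since sh-MFAP2 replicate 1 lay below control replicate 2. The mean was 77.8 ± 20.6 FPKM under sh-MFAP2 and 61.3 ± 13.7 FPKM in the controls (SD, n = 2). On the inferred scale these levels rest on about 3981 to 6941 reads per library, so that counting error is small beside the spread between replicates. By mean level MT2A ranked 442 of the 9873 genes tested. The log2 fold change was 0.33 (SE 0.276, 95% interval −0.45 to 1.11, limma adjusted p = 0.620). This interval runs from a fold of 0.73 to a fold of 2.17 on the scale of FPKM + 1, and so includes a fold of 2 as well as a fall.

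MT1X, the second metallothionein by level, gave 8.48 and 14.2 FPKM under sh-MFAP2 and 13.3 and 14.2 FPKM under the control shRNA. A single library, sh-MFAP2 replicate 1, lay below the other 3, which were close together. The mean was 11.4 ± 4.06 FPKM under sh-MFAP2 and 13.7 ± 0.666 FPKM in the controls (SD, n = 2), and MT1X ranked 2974 of 9873. The log2 fold change was −0.29 (SE 0.269, 95% interval −1.06 to 0.47, limma adjusted p = 0.646). Without sh-MFAP2 replicate 1 it was 0.05, so that the direction of MT1X rested on that library.

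MT1E was low in all libraries, at 2.66 and 3.35 FPKM under sh-MFAP2 against 2.45 and 2.01 FPKM under the control shRNA. Both sh-MFAP2 libraries lay above both controls, by a gap smaller than the difference between the replicates of either group. The mean was 3.01 ± 0.49 against 2.23 ± 0.313 FPKM (SD, n = 2). The log2 fold change was 0.31 (SE 0.151, 95% interval −0.12 to 0.74, limma adjusted p = 0.474). MT1F was at 1.66 and 1.80 FPKM under sh-MFAP2 and at 1.57 and 1.23 FPKM under the control shRNA. Here too the groups did not overlap, and the mean was 1.73 ± 0.098 against 1.4 ± 0.238 FPKM (SD, n = 2). The log2 fold change of MT1F was 0.19 (SE 0.125, 95% interval −0.17 to 0.55, limma adjusted p = 0.556). These 2 of the 5 genes had both sh-MFAP2 libraries above both controls, a pattern shown by 17.5% of all genes tested. They ranked 7709 (MT1E) and 8922 (MT1F) of 9873 by mean level.

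MT1G was listed at 0 FPKM in sh-MFAP2 replicate 1 and in both controls and at 0.0477 FPKM in sh-MFAP2 replicate 2, which is about 1.96 reads. MT1M was listed at 0 FPKM in all 4 libraries. Neither was tested, and no fold is given for them. The remaining 10 family genes of the table were at or near 0. MT1A, MT1B, MT1H, MT1HL1, MT3 and MT4 and the pseudogenes MT1CP, MT1JP and MT1L were listed at 0 in all 4 libraries. The pseudogene MT1DP was at 0.126 and 0.179 FPKM under sh-MFAP2 and at 0.0476 and 0.0589 FPKM under the control shRNA, under 2 reads in each, and was not tested. Of the promoters described above, that of MT1H with 8 cores thus belonged to a gene listed at 0 and that of MT2A with 7 to the most abundant form.

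MTF1, the transcription factor that senses zinc, was at 0.784 and 1.07 FPKM under sh-MFAP2 and at 2.47 and 1.24 FPKM under the control shRNA. Both sh-MFAP2 libraries lay below both controls, as for 31.4% of all genes tested, and control replicate 1 stood above the other 3 libraries. The mean was 0.925 ± 0.199 FPKM under sh-MFAP2 and 1.85 ± 0.869 FPKM in the controls (SD, n = 2). MTF1 thus passed the filter of 1 FPKM only through the controls, where it was higher. Its pattern over the libraries and its estimate are therefore a description and lend no support to a fall. The log2 fold change was −0.54 (SE 0.261, 95% interval −1.28 to 0.21, limma adjusted p = 0.473). With a pseudocount of 0.1 in place of 1 it was −0.87, and without control replicate 1 it was −0.22. MTF1 ranked 9200 of 9873, near the bottom of the genes tested.

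**Figure D2:**
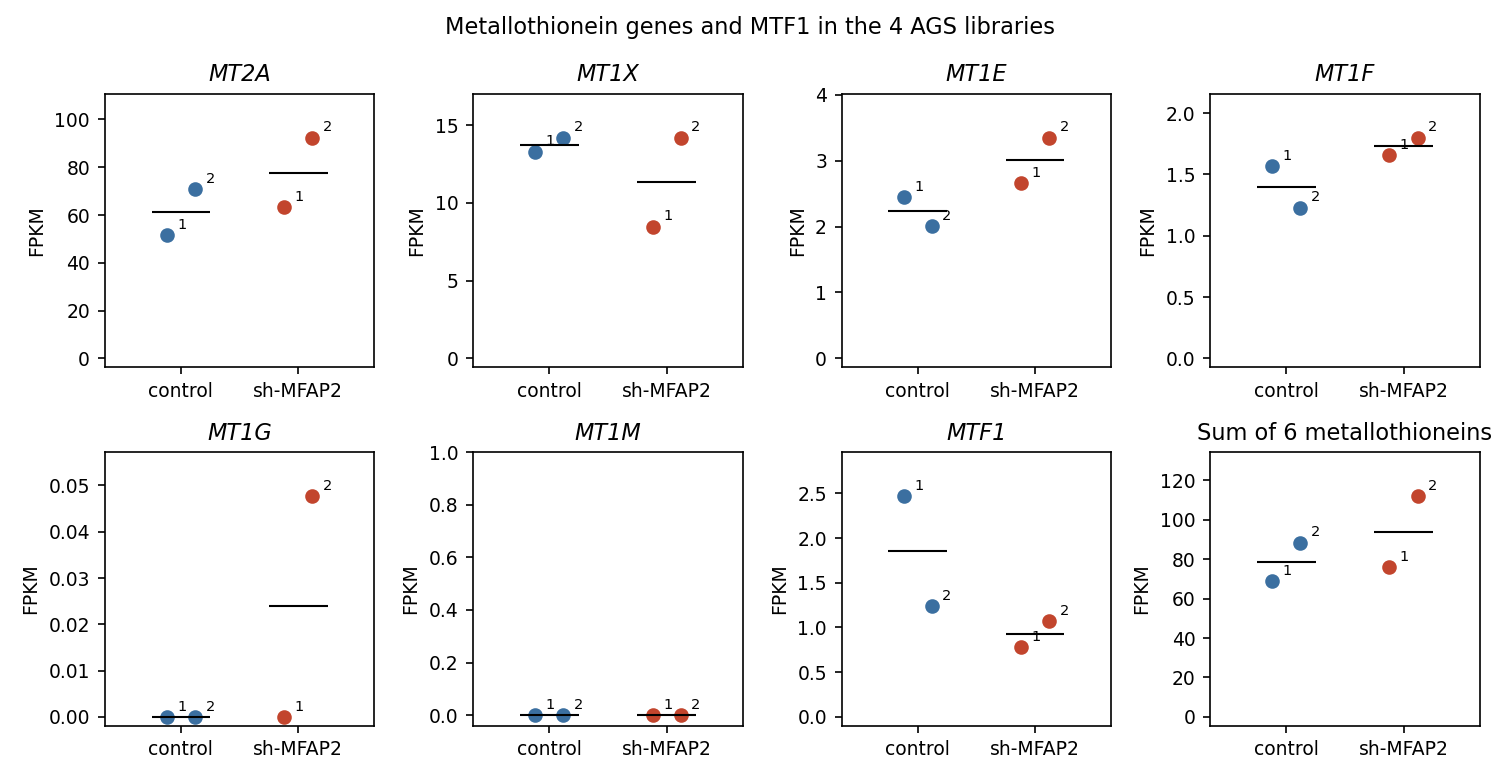
Each panel gives the FPKM of 1 gene, or the sum of the 6 metallothionein genes, on a linear vertical axis of its own. Points are libraries, numbered by replicate, and lines are means of 2 libraries. The groups overlap for MT2A and MT1X, sh-MFAP2 lies above the controls for MT1E and MT1F and below them for MTF1, and MT1M is listed at 0 throughout.

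**Figure D3:**
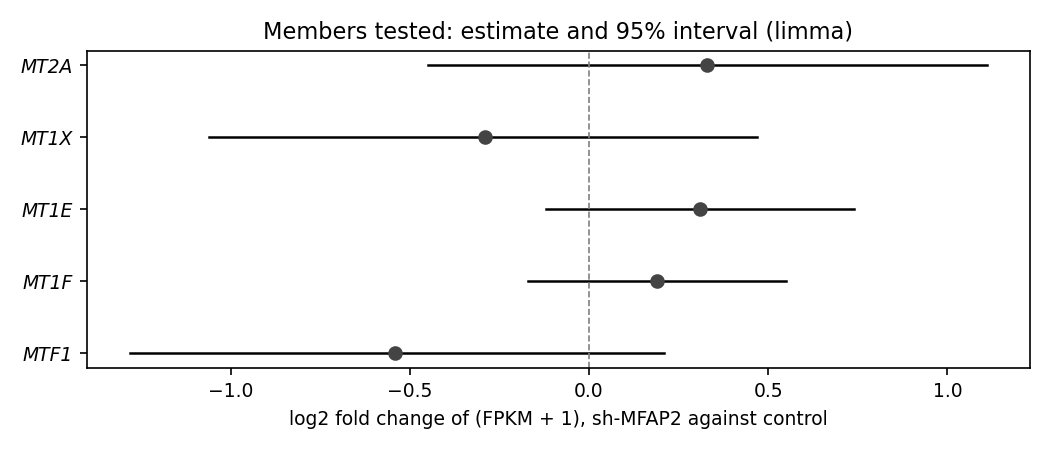
The horizontal axis gives the log2 fold change of FPKM + 1, sh-MFAP2 against control, for the 5 genes tested. Points are limma estimates and lines are 95% intervals, each of which crosses 0, from −1.28 to 0.21 for MTF1 and from −0.45 to 1.11 for MT2A.

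Of the 4 metallothionein genes tested, MT2A, MT1E and MT1F had estimates above 0 and MT1X an estimate below 0, and the median was 0.25, against −0.05 over all genes tested. Without sh-MFAP2 replicate 1 all 4 estimates were above 0, at 0.60 for MT2A, 0.43 for MT1E, 0.23 for MT1F and 0.05 for MT1X. Without sh-MFAP2 replicate 2 they were 0.06 for MT2A, 0.18 for MT1E, 0.15 for MT1F and −0.63 for MT1X. The 6 genes summed to 76.0 and 112 FPKM under sh-MFAP2 and to 68.9 and 88.4 FPKM under the control shRNA. The groups overlapped. The log2 of the sum was 6.53 ± 0.394 in sh-MFAP2 and 6.29 ± 0.255 in the controls (SD, n = 2), a ratio of 1.18 that lay within the spread of the replicates. With sums over transcripts in place of gene values the ratio was 1.11.

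Within a library, the make-up of the family does not depend on depth. MT2A made up 83.1% and 82.6% of the summed FPKM under sh-MFAP2 and 74.9% and 80.3% under the control shRNA. MT1X made up 11.2% and 12.7% in sh-MFAP2 and 19.2% and 16.1% in the controls. Neither share overlapped between the groups. The shares of MT2A and MT1X make up most of the sum, so that they are not separate observations. Among single genes tested, 17.5% had both sh-MFAP2 libraries above both controls and 31.4% below, and no such count was made for shares or ratios. MT1E stayed between 2.27% and 3.56%, and MT1F between 1.39% and 2.27%, with overlap between the groups. The ratio of MT2A to MT1X was 7.44 and 6.50 under sh-MFAP2 and 3.89 and 5.0 under the control shRNA. On the log2 scale it was 2.80 ± 0.139 against 2.14 ± 0.255 (SD, n = 2), a difference of 0.66 or a fold of 1.58. The ratio of MT2A to MT1E overlapped between the groups, at 23.7 and 27.5 under sh-MFAP2 and 21.1 and 35.4 in the controls. That of MT1E to MT1X did not, at 0.314 and 0.236 against 0.185 and 0.141. The ratios without overlap were thus those that include MT1X. Values of MT1X are uncertain through bases shared with AC026461.1. The direction of the fold change of MT1X itself, unlike that of these ratios, rested on sh-MFAP2 replicate 1. These ratios were chosen after the values were seen and are given as a description, with no test.

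**Figure D4:**
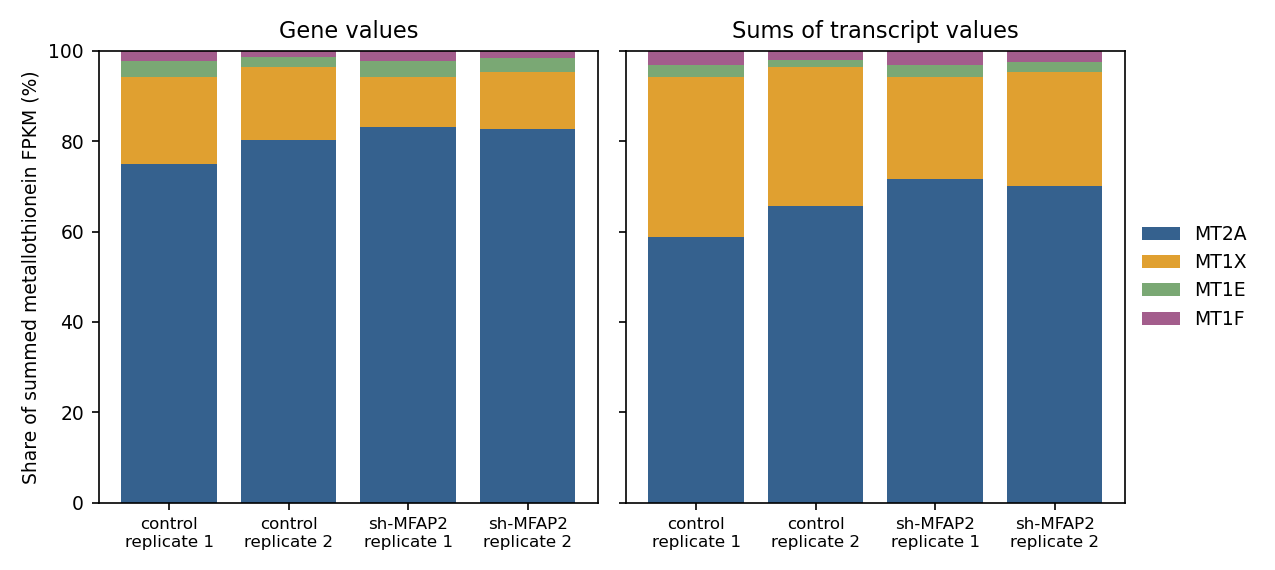
Stacked bars give the share in percent of the summed metallothionein FPKM in each library, from gene values on the left and from sums of transcript values on the right. MT2A takes 74.9% to 83.1% of the gene values and 58.9% to 71.6% of the transcript sums, and in both panels its share is higher in the 2 sh-MFAP2 libraries than in the 2 controls.

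Levels between genes depended on the length used. Each deposited gene value equalled its transcripts' values, weighted by length, over the bases of all exons of the gene, 1299 for MT2A, 1773 for MT1X, 1052 for MT1E and 1889 for MT1F, although the main transcripts are shorter. For MT2A the main transcript ENST00000245185 has 786 bases and made up 93.0% to 93.8% of the summed transcript FPKM. It was at 99.2 and 146 FPKM under sh-MFAP2 and at 80.8 and 112 FPKM under the control shRNA. A shorter protein-coding transcript of MT2A, ENST00000561491, gave most of the rest, at 6.42 and 9.08 FPKM against 5.75 and 7.20 FPKM. For MT1X the main transcript ENST00000394485 has only 450 bases, and it gave 33.4 and 55.3 FPKM under sh-MFAP2 and 51.8 and 55.9 FPKM in the controls. By transcripts the ratio of MT2A to MT1X was therefore lower, at 3.18 and 2.78 under sh-MFAP2 and 1.67 and 2.13 under the control shRNA, with the same difference of 0.66 on the log2 scale.

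The order of the low forms turned with this choice. MT1E exceeded MT1F by gene values, with ratios of 1.6, 1.86, 1.56 and 1.63 under sh-MFAP2 and then the control shRNA. By sums of transcripts it was below MT1F, with ratios of 0.828, 0.928, 0.769 and 0.794. The main transcript of MT1E, ENST00000306061, made up 96.3% to 99.4% of its transcript sum. MT1F was more mixed. Its main transcript ENST00000334350 made up 84.2% and 77.2% under sh-MFAP2 and 73.4% and 71.5% under the control shRNA, and ENST00000568475, a shorter protein-coding form, gave 0.730 and 1.22 FPKM under sh-MFAP2 and 1.25 and 1.06 FPKM in the controls. For MTF1 a single transcript of 7972 bases, ENST00000373036, carried the whole sum to the precision given.

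The genes tested outside the family whose pattern over the 4 libraries lay closest to that of MT2A, by Euclidean distance between centred log2(FPKM + 1) values, were TLCD1 (0.0816), RHOBTB2 (0.0907), LINC00339 (0.121), UQCRQ (0.134) and DGCR6L (0.145). TLCD1, a membrane protein gene, was at 5.03, 7.73, 4.21 and 5.61 FPKM under sh-MFAP2 and then the control shRNA. UQCRQ, a subunit gene of respiratory complex III, was at 66.7, 98.7, 50.9 and 67.7 FPKM. The other metallothionein genes were less like MT2A than these. MT1E had a distance of 0.505, with 1147 genes tested closer to MT2A, MT1F of 0.587 with 2438 genes closer and MT1X of 0.681 with 4484 genes closer. With 4 libraries such a likeness is a description only.

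Genes that handle zinc, copper and iron were read from 5 lists, zinc exporters, zinc importers, copper handling, iron handling and other targets of MTF1, with 65 genes between them. Of the 48 that passed the filter, 0 were called by limma, where 0.273% of all genes tested were, and 5 had an unadjusted p under 0.05, all 5 lower in sh-MFAP2, where 8.41% of all genes were lower at that limit. Their median log2 fold change was −0.09, against −0.05 over all genes tested. Both sh-MFAP2 libraries lay above both controls for 9 of the 48 and below for 15, where the shares of all genes tested were 17.5% and 31.4%.

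Zinc exporters of the SLC30 family, most of which move zinc out of the cytosol, had 6 of 10 genes tested and a median of −0.15. SLC30A4 had the smallest p, at 1.24 and 1.57 FPKM under sh-MFAP2 against 1.94 and 2.15 FPKM in the controls (log2 fold change −0.34, limma adjusted p = 0.412). SLC30A6 was at 2.28 and 1.68 against 2.34 and 5.18 FPKM, and SLC30A9 at 13.1 and 13.3 against 14.5 and 15.2 FPKM. SLC30A1, the plasma membrane exporter that MTF1 induces together with the metallothioneins, could not be read. It was listed at 0.0795 and 8.49 FPKM under sh-MFAP2 and at 8.80 and 0.189 FPKM under the control shRNA, so that replicates differed more than groups (95% interval of the log2 fold change −4.63 to 4.44).

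Zinc importers of the SLC39 family, which bring zinc into the cytosol, had 10 of 14 genes tested and a median of 0.15, which was −0.01 with no filter, near 0 without sh-MFAP2 replicate 1 and 0.28 without sh-MFAP2 replicate 2. SLC39A1 was at 38.3 and 19.4 FPKM under sh-MFAP2 and at 76.2 and 84.5 FPKM under the control shRNA. The groups were well apart, with a log2 fold change of −1.52 (95% interval −2.56 to −0.49, limma adjusted p = 0.349). SLC39A10 is also a listed target of MTF1, without a recorded direction of effect. It was at 6.12 and 6.03 FPKM under sh-MFAP2 and at 8.23 and 8.63 FPKM under the control shRNA (log2 fold change −0.41, limma adjusted p = 0.349). SLC39A4, the intestinal zinc importer, was at 9.50 and 8.51 against 7.48 and 6.92 FPKM (log2 fold change 0.29, limma adjusted p = 0.423). None of these passed the adjusted threshold, and the list was divided in direction, with both sh-MFAP2 libraries above both controls for 4 of the 10 genes and below for 3, where 17.5% and 31.4% of all genes tested did.

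Copper genes had 13 of 15 tested, a median of 0.09 and none with an unadjusted p under 0.05. The copper pump ATP7A was at 0.799 and 1.21 FPKM under sh-MFAP2 and at 1.56 and 2.20 FPKM under the control shRNA (log2 fold change −0.52, limma adjusted p = 0.407). SOD1, the copper and zinc superoxide dismutase, was at 133 and 128 against 83.9 and 111 FPKM (0.43, limma adjusted p = 0.424), and CUTC was at 3.87 and 3.87 against 3.30 and 2.89 FPKM.

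Iron, unlike zinc and copper, is not a metal that metallothioneins are known to buffer. Iron genes had 15 of 20 tested and the lowest median of the 5 lists, −0.26. Both sh-MFAP2 libraries lay below both controls for 7 of the 15 and above for 1, where 31.4% and 17.5% of all genes tested did. NCOA4, the receptor that sends ferritin to be degraded, was at 17.3 and 19.8 FPKM under sh-MFAP2 and at 25.3 and 27.9 FPKM under the control shRNA (log2 fold change −0.50, limma adjusted p = 0.368). TFRC, the transferrin receptor, was at 19.4 and 17.5 against 27.9 and 23.4 FPKM (−0.45, limma adjusted p = 0.394). ACO1, an iron regulatory protein, was at 6.53 and 5.62 against 7.89 and 9.74 FPKM (−0.47, limma adjusted p = 0.398). None was called. Among the alternatives tried, the median of this list stayed below that of all genes.

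Other targets of MTF1 had 7 of 9 genes tested and a median of −0.09. That median is the estimate of SLC30A1, which could not be read and is also counted among the zinc exporters. The list does not record whether MTF1 raises or lowers each gene, so that its median is no measure of MTF1 activity. After SLC39A10, the smallest p belonged to GCLC, the catalytic subunit of glutathione synthesis, at 5.61 and 6.12 FPKM under sh-MFAP2 against 6.97 and 7.30 FPKM in the controls (−0.25, limma adjusted p = 0.438). The iron exporter SLC40A1 was next, at 4.45 and 2.45 against 4.41 and 4.57 FPKM.

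Glucocorticoid response genes, read because glucocorticoids raise MT2A, had 5 of 10 genes tested, 0 called and a median of 0.02. The kinase SGK1 was at 4.47 and 4.71 FPKM under sh-MFAP2 against 5.65 and 5.88 FPKM in the controls (−0.28, limma adjusted p = 0.410), and FKBP5, a co-chaperone of the receptor, was at 0.801 and 0.847 against 1.06 and 1.31 FPKM. FKBP5 passed the filter of 1 FPKM only through the controls, where it was higher. CEBPD was listed at 0 in sh-MFAP2 replicate 1 and control replicate 2 and at 3.11 and 1.86 FPKM in the others.

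Genes on either side of the cluster on chromosome 16 had 7 of 10 tested, 0 called and a median of −0.03. NUDT21, upstream of the cluster, was at 24.2 and 30.6 FPKM under sh-MFAP2 against 35.1 and 35.3 FPKM in the controls (−0.36, limma adjusted p = 0.437). Downstream, HERPUD1 was at 4.29 and 5.90 against 5.92 and 7.57 FPKM, and NLRC5 at 1.71 and 1.39 against 1.23 and 1.24 FPKM.

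**Figure D5:**
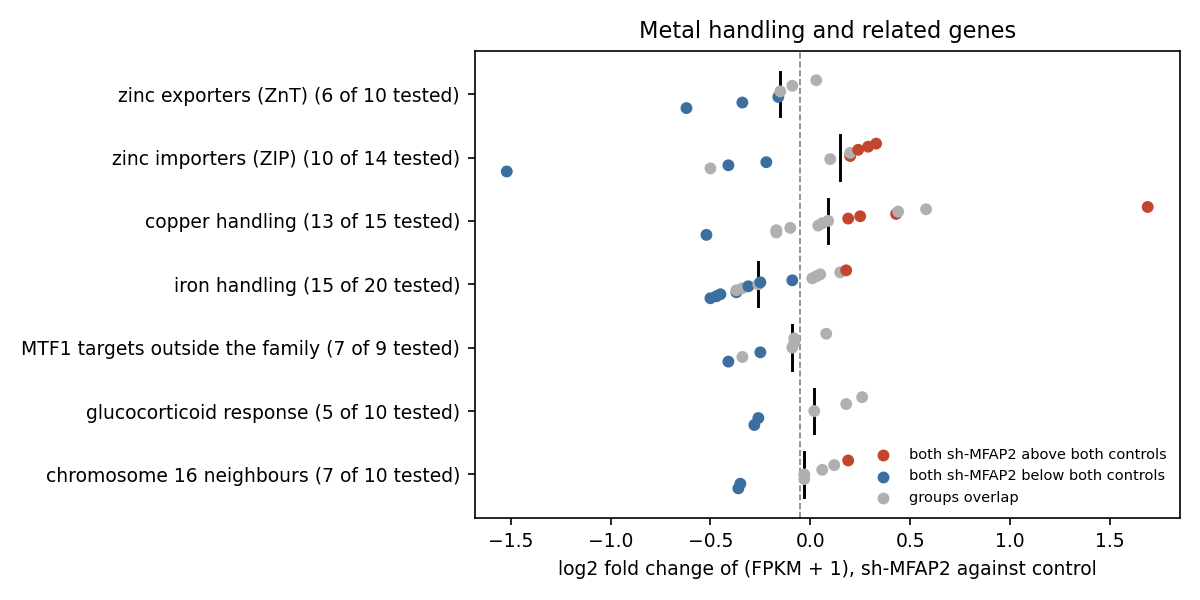
Each point is a gene tested, placed by list on the vertical axis and by its log2 fold change of FPKM + 1, sh-MFAP2 against control, on the horizontal axis. Short black lines are list medians and the dashed line is the median of all genes tested (−0.05). Red and blue points have groups that do not overlap, iron handling has the lowest median (−0.26), and no point was called.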

How the data were processed

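RNA-seq of 4 AGS libraries was analysed, 2 sh-MFAP2 and 2 control, grouped by their labels. The authors deposited values, taken here as FPKM, for 47251 genes and 180500 transcripts. The submitters' processing notes name hg38. The aligner, the estimator and the annotation are not given in the sources used here. Gene values matched the length-weighted transcript sums over GENCODE 29 exon lengths. The 9873 genes averaging at least 1 FPKM were tested on log2(FPKM + 1), pseudocount 1, by limma 3.58.1 in R 4.3.3 (lmFit, then eBayes with trend), and p-values were Benjamini-Hochberg adjusted over all of them. The fit, the motif search and the depth estimate were tested on simulated data. Depth was inferred from the step of low values of genes with a single transcript. Not all values lay on steps, so no count test was run, and no interval is given for a single value. Python 3.11.15, pandas 2.3.3, numpy 2.4.6 and matplotlib 3.10.9 handled tables and figures. SELENOW and SELENOH were matched by gene identifier.

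The members and the lists were chosen with earlier results of these data known. Named were the members, the other family genes, the listed transcripts, MFAP2, the 3 genes of each metal, glucocorticoid and neighbour list with the smallest p, any called gene of a list and the 5 genes closest to MT2A. PCBP1, SLC30A1 as an exporter and the markers above the filter were named after their values were seen. The values of 1 marker gene are not reported here. Other filters, pseudocounts, scalings, thresholds, a replicate block, transcript sums and leaving out each library were tried.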

Additional observations from a re-analysis of the deposited data

How the results depend on the processing

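With no filter 6 genes of the whole table were called, with a mean of at least 5 FPKM 9, with the replicate number as a block 0 (722 at an unadjusted p under 0.05), at adjusted p under 0.1 alone 46 and at unadjusted p under 0.05 alone 1214, against 27. Without each library in turn the count ranged from 0 to 0, with 555 to 2166 genes at an unadjusted p under 0.05. In these fits the lone library of a group is assumed to vary like the other group. Of the 7 genes 0 were called under the alternatives run for them, and MT1M, listed at 0 throughout, was in no fit. Of the metal handling genes 0 were called, except that 5 passed at unadjusted p under 0.05 alone. Without each library in turn no gene of the whole table was called, so that those fits could call none of these genes. Calls among the metal handling genes were not counted with sums of transcripts, and adjusted p under 0.1 alone was run for the whole table only. MT1X and MTF1 each had an unadjusted limma p under 0.05 in 1 alternative, and MT2A, MT1E and MT1F in none. The estimate of MT1X turned to 0.05 without sh-MFAP2 replicate 1 and was −0.63 without sh-MFAP2 replicate 2. Without each library in turn the others kept their sign: MT2A ran from 0.06 to 0.60, MT1E from 0.18 to 0.43, MT1F from 0.09 to 0.29 and MTF1 from −0.85 to −0.22, with smallest adjusted p of 0.403, 0.364, 0.498 and 0.399 over all alternatives. The ratio of summed metallothionein FPKM (1.18) was 1.22 with scaling by median of ratios and 0.973 to 1.43 without each library in turn, and it fell under 1 only without sh-MFAP2 replicate 2. Same-numbered libraries showed little joint deviation (correlation across genes −0.0572, with 2 pairs). The numbers are not taken to pair the samples, although 2 pairs are too few to exclude pairing. The replicate block left 0 genes called in the whole table, so that the lack of calls among the 7 genes under it says nothing about pairing. MT1E, MT1F and MTF1 had no value at a mean of at least 5 FPKM. The count of called genes by sums of transcripts (27) was added after the data were seen. With 2 libraries per group the 95% interval of MT2A spans folds of 0.73 to 2.17, and MT1G, listed at 0 in 3 libraries, was not compared.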
